A study of Mus musculus with 6 samples.

Results

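The lipid-guided migration receptors of B cells and the proteins that switch their signal on and off were read from 6 one-colour Agilent arrays of sorted peritoneal cavity B1a cells. They comprise 10 genes, taken by name among 36163 gene names on the array: the sphingosine 1-phosphate (S1P) receptors S1pr1, S1pr2, S1pr3 and S1pr4, the oxysterol receptor Gpr183 (EBI2), the inhibitory G protein subunit Gnai2, and the regulators of G protein signalling Rgs1, Rgs2, Rgs10 and Rgs13. Every non-control probe that carried 1 of these names was used, which gave 11 of the 55681 probes on the array, 2 of them for Rgs2 and 1 for each other gene. Of the 11, 9 were among the 24757 probes that were bright enough to be tested.

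All mice lacked p40, the shared chain of IL-12 and IL-23 that Il12b encodes, on the C57Bl/6 background, and all were females of 7 weeks. They differed in CD25, the IL-2 receptor alpha chain that Il2ra encodes: 3 arrays came from p40-/-CD25-/- mice, which develop autoimmune cholangitis, and 3 from p40-/-CD25+/- mice, which served as controls and still carry 1 disrupted copy. Both deletions are germline, so every cell type of the mouse carries them. The B1a cells of the p40-/-CD25-/- mice had thus developed in animals whose T cells lacked CD25 as well. Each sample drew on a minimum of 3 mice by the submitters' design note. The cells were sorted by flow cytometry on surface markers that included CD11b and CD5.

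S1P is a lysophospholipid that is plentiful in blood and lymph and scarce inside tissues, and lymphocytes follow it outwards through S1P receptors. Oxysterols are the guidance lipids of Gpr183, which positions B cells in lymphoid tissue. These receptors signal largely through heterotrimeric G proteins of the inhibitory class, and RGS proteins end the signal by speeding GTP hydrolysis on the alpha subunit. In the peritoneal cavity, S1P signalling is known to control the exit and return of B1 cells.

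The levels below are log2 of the processed signal of a probe minus the 75th percentile of its array, so 0 is the signal at that percentile and a step of 1 is a 2-fold change. Levels of different probes are not comparable, because probes differ in how strongly they bind. The arrays of the p40-/-CD25-/- mice were dimmer, with a 75th percentile of 66.5 to 162 intensity units against 252 to 272 in controls, and 39.7% to 45.9% of their spots were well above background against 47.2% to 50.6%. The Il2ra probe read 1.62, 1.13 and 1.35 on control arrays 1, 2 and 3, and -0.31, -0.59 and 0.86 on p40-/-CD25-/- arrays 1, 2 and 3. It was thus lower on every p40-/-CD25-/- array, as the labels have it, with a log2 difference of -1.38 (limma adjusted p = 0.119), and it was still well above background on all 3 of them. Where that probe lies relative to the disrupted part of Il2ra was not given in the sources used here. Il12b, which all mice lack, had a probe that was nonetheless well above background on all arrays of both genotypes, between -2.52 and -1.80, and its place relative to the disrupted part was not given either. The sort markers Itgam (CD11b) and Cd5 and 6 B cell markers, among them Cd79a and Ms4a1, had a probe well above background on each of the 6 arrays.

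None of the 9 tested probes differed by 2-fold with an unadjusted p of at most 0.05, the thresholds of the study, against 3.64% of all tested probes, and none did by the methods' t-test. None had a limma adjusted p under 0.05, which 0.0808% of all tested probes had. At an unadjusted p under 0.05 there was 1, S1pr2, against 24.6% of all tested probes, and S1pr2 passed the filter only through the controls, since no p40-/-CD25-/- array was well above background. The genotypes did not overlap for 2 of the 9, S1pr2 and Rgs10, both lower in p40-/-CD25-/- cells, and this share of 22.2%, which counts S1pr2, compares with 35.2% of all tested probes. The median log2 difference over the 9 probes was -0.17, and it was -0.09 over all tested probes. As these were sorted cells measured in bulk, fewer cells of a kind and less RNA per cell cannot be told apart.

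**Figure D1:**
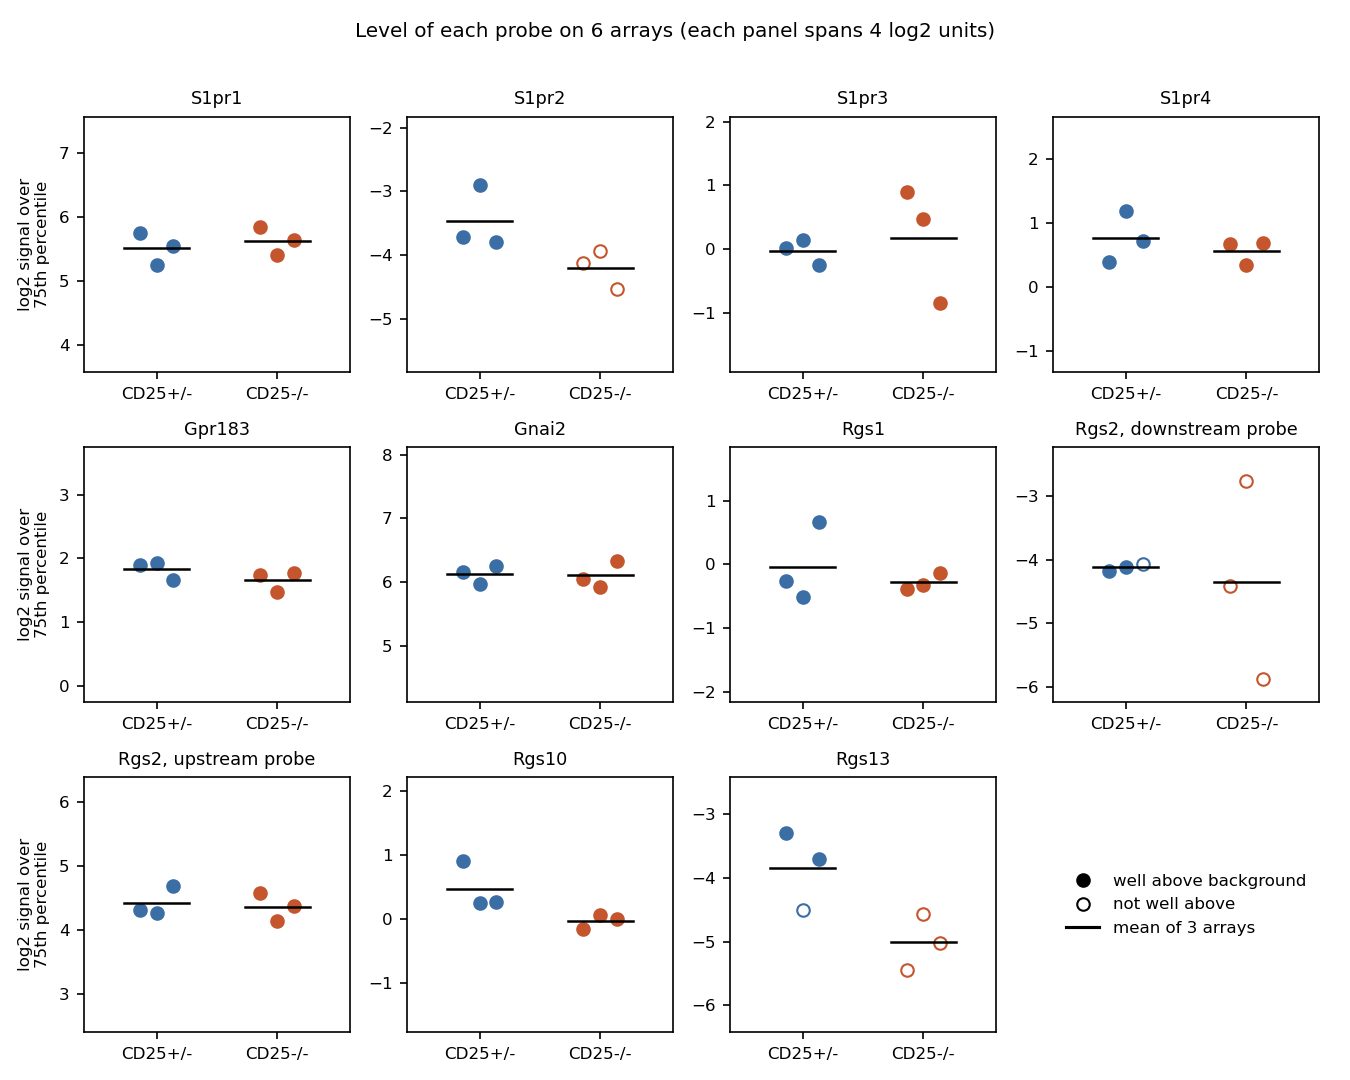
Level of each of the 11 probes on the 3 control (CD25+/-, blue) and 3 CD25-/- (orange) arrays, as log2 signal relative to the array's 75th percentile, with the mean as a line; each panel spans the same range of 4 log2 units around its own centre. Filled points are well above background. The genotypes do not overlap for S1pr2, Rgs10 and, narrowly and near background, Rgs13, and in S1pr2 and Rgs13 no CD25-/- array was well above background.

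Among the S1P receptors, S1pr1 is the receptor that lets lymphocytes leave tissues towards blood and lymph. Its probe, at chr3:115414020-115414079 on the minus strand of mm9, read 5.75, 5.25 and 5.54 in controls and 5.84, 5.40 and 5.64 in p40-/-CD25-/- cells. The ranges overlapped, and 2 of the 3 arrays of each genotype lay inside the range of the other. S1pr1 was 1.08-fold higher in p40-/-CD25-/- cells, a log2 difference of 0.11 ± 0.19 (SE, n = 3 arrays a genotype) with a 95% interval from -0.34 to 0.56 and a limma adjusted p of 0.716. A difference as large as 2-fold in either direction lay outside this interval, while 1.48-fold higher and 1.26-fold lower lay at its ends. The direction turned, to -0.18, under another background correction (normexp) with the same scaling.

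S1pr2 opposes migration and holds B cells in place, best known in germinal centres. Its probe, at chr9:20770729-20770788 on the minus strand, read -3.71, -2.89 and -3.79 in controls, all well above background, and -4.13, -3.94 and -4.53 in p40-/-CD25-/- cells, none of them well above background. Every control array was above every p40-/-CD25-/- array. The mean was -3.46 ± 0.50 (SD, n = 3) in controls and -4.20 ± 0.30 (SD, n = 3) in p40-/-CD25-/- cells, with a limma adjusted p of 0.175.

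The lowest level that counted as well above background lay at -4.53, -4.55 and -4.09 on the control arrays and at -3.50, -2.47 and -3.67 on the p40-/-CD25-/- arrays. The S1pr2 values of control arrays 1 and 3 thus sat below the lowest such level of every p40-/-CD25-/- array, and no fold is given because the bound that these limits allow is under 1. The direction of S1pr2 turned under 1 of 18 alternatives, normexp with the same scaling. There its log2 difference was 0.51, higher in p40-/-CD25-/- cells, with a limma adjusted p of 0.049. Under that setting 37.7% of all tested probes had an adjusted p under 0.05. With normexp and quantile normalization the difference was -0.195. With quantile normalization it was -1.11, past the 2-fold thresholds.

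S1pr2, Rgs10 and Rgs13 were the genes whose genotypes did not overlap, and the sequences their probes read are given here for that reason. For Rgs13 the nearest values of the genotypes were both not well above background, so its order rests on values near background. Each probe has 60 bases, of which the first 30 are printed, 5′ to 3′, as the array files hold them, all in lower case because no part is singled out.
S1pr2 probe: tcctgtggagaaatagaaaaatccaatacg
Rgs10 probe: gaccttccctctggatatgtgtattttatt
Rgs13 probe: gacaccttattgtaccttactatgaacatt

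The promoters of the same 3 genes, which were in the RefSeq table for GRCm38.p6 together with those of 4 other genes of the 10 (S1pr3, S1pr4, Gpr183 and Rgs2), run from 250 bases before to 50 after the start of the gene. They were searched for the cAMP response element TGACGTCA, which reads the same on both strands, because Gi-coupled receptors lower cAMP. Capitals mark that element.
S1pr2, chr9:20976744-20977043, minus strand: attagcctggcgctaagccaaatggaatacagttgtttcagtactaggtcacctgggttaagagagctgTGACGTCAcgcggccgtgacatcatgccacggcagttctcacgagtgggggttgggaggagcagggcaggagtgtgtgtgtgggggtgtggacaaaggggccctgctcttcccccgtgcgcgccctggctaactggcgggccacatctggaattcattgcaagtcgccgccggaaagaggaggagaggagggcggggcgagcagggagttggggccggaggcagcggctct
Rgs10, chr7:128418123-128418422, minus strand: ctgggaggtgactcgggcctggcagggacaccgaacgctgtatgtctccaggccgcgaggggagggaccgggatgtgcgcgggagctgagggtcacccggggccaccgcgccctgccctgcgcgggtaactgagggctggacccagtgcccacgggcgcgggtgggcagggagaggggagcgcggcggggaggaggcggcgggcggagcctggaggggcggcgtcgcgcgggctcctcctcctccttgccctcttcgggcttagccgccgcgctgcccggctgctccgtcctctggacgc
Rgs13, chr1:144177323-144177622, minus strand: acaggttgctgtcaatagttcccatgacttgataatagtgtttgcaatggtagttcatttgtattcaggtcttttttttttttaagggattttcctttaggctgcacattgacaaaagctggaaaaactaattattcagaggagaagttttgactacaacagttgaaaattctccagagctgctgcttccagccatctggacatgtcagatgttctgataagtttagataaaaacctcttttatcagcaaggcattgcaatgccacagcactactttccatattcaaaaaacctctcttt

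The whole element was found in S1pr2 alone of the 7 promoters, and 1.79% of the 32851 promoters in the table hold it. In S1pr2 it begins 181 bases before the start of the gene. A shorter form, TGACG or CGTCA, which lies inside the whole element, was found in S1pr2 and Rgs2 and is held by 20.8% of all promoters. The promoters of Rgs10 and Rgs13 hold neither form. Whether the element bears on any of the levels was not tested. The S1pr2 promoter has 62% G and C, the Rgs10 promoter 76% and the Rgs13 promoter 36.7%.

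S1pr3, a receptor better known from endothelium, macrophages and marginal zone B cells, had the widest spread among the 9 tested probes of the 10 genes. Its probe, at chr13:51517079-51517138 on the plus strand, read 0.02, 0.15 and -0.26 in controls and 0.90, 0.48 and -0.84 in p40-/-CD25-/- cells. All 3 control values lay inside the range of the p40-/-CD25-/- values, of which array 3 was the lowest and array 1 the highest of all 6. The log2 difference was 0.21 ± 0.42 (SE, n = 3), with a 95% interval from -0.77 to 1.19 and a limma adjusted p of 0.762. This interval takes in a 2.27-fold increase. Without p40-/-CD25-/- array 1 the difference was -0.15 and without array 3 it was 0.72.

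S1pr4 is carried mainly by blood and lymphoid cells. Its probe, at chr10:80961501-80961560 on the minus strand, read 0.39, 1.18 and 0.72 in controls and 0.67, 0.34 and 0.68 in p40-/-CD25-/- cells. The highest value was control array 2 and the other 5 arrays overlapped. S1pr4 differed by -0.20 ± 0.23 on the log2 scale (SE, n = 3; 95% interval from -0.74 to 0.34; limma adjusted p = 0.580), and by 0.01 without control array 2.

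Gpr183 draws activated B cells towards oxysterols made by stromal cells. Its probe, at chr14:122351881-122351940 on the minus strand, read 1.89, 1.92 and 1.67 in controls and 1.74, 1.47 and 1.77 in p40-/-CD25-/- cells. The genotypes overlapped between 1.67 and 1.77. The log2 difference of -0.17 ± 0.16 (SE, n = 3) had a 95% interval from -0.54 to 0.21 and a limma adjusted p of 0.512, so a change of 2-fold lay outside the interval. It was negative under all 19 processing alternatives, between -0.33 and -0.02.

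Gnai2 encodes the inhibitory alpha subunit that chemoattractant receptors of lymphocytes use most. Its probe, at chr9:107516892-107516951 on the minus strand, read 6.15, 5.97 and 6.26 in controls and 6.06, 5.92 and 6.34 in p40-/-CD25-/- cells. The ranges were nearly the same. The log2 difference was -0.02 ± 0.17 (SE, n = 3), with a 95% interval from -0.42 to 0.38 and a limma adjusted p of 0.937. Its sign turned under 7 of 19 alternatives, 4 of them with another scaling, of which 1 also changed the background correction. Scaling by the median of bright probes alone raised every difference on the array by 0.091 to 0.11, more than this difference.

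**Figure D2:**
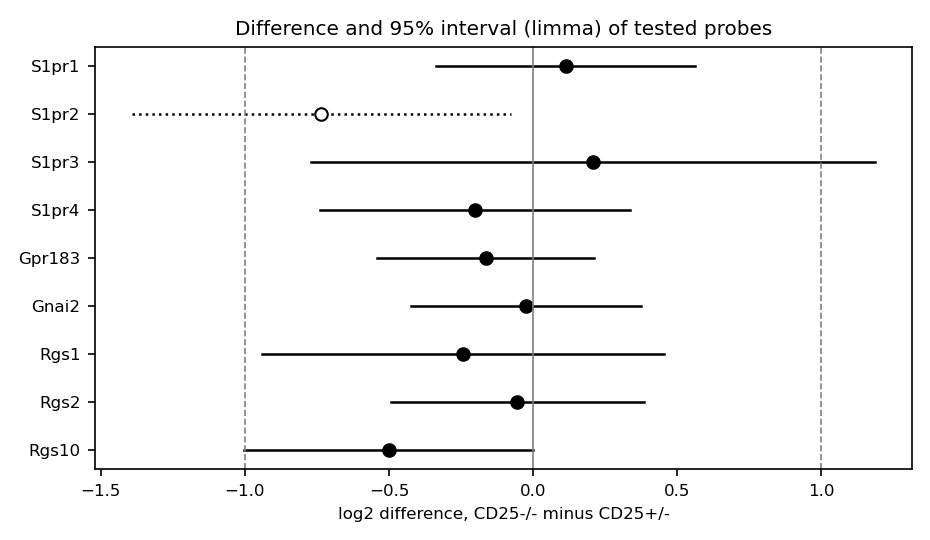
Log2 difference, p40-/-CD25-/- minus p40-/-CD25+/-, with the 95% interval of limma, for the 9 tested probes (3 arrays a genotype). The open point with a dotted interval is S1pr2, which was not well above background on any p40-/-CD25-/- array. Dashed lines mark a 2-fold difference; no point reaches them, and the intervals of S1pr1, S1pr4, Gpr183, Gnai2, Rgs1 and Rgs2 lie between them.

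Rgs1 is an activation-induced regulator that blunts chemokine and S1P responses of B cells. Its probe, at chr1:146091962-146092021 on the minus strand, read -0.26, -0.51 and 0.66 in controls and -0.38, -0.32 and -0.14 in p40-/-CD25-/- cells. Control array 3 stood above the other 5, which overlapped. The log2 difference was -0.24 ± 0.30 (SE, n = 3; 95% interval from -0.94 to 0.46; limma adjusted p = 0.606). It turned to 0.11 without control array 3.

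Rgs2, which acts on Gq and Gi and is known as a cAMP-induced gene, was read by 2 probes that lie 1543 bases apart on the minus strand. The upstream probe, at chr1:145848830-145848889, read 4.31, 4.27 and 4.68 in controls and 4.58, 4.14 and 4.38 in p40-/-CD25-/- cells. On each of the 6 arrays it was well above background, and its genotypes overlapped. The log2 difference was -0.06 ± 0.19 (SE, n = 3), with a 95% interval from -0.49 to 0.38 and a limma adjusted p of 0.862, and its sign turned under 6 of 19 alternatives.

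The downstream Rgs2 probe, at chr1:145847227-145847286, read -4.18, -4.11 and -4.07 in controls and -4.41, -2.77 and -5.87 in p40-/-CD25-/- cells. It was well above background on control arrays 1 and 2 alone and was not tested. The values of the p40-/-CD25-/- arrays surrounded those of the controls. The first 30 bases of both probes are given because the probes of this gene differed in how many arrays were well above background, 6 and 2.
Rgs2 upstream probe: atcctcggttcttggagtccgaattctacc
Rgs2 downstream probe: ctatttgccaaaagaaatagtctttatgac

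Rgs10 is a small regulator made up of little more than the RGS domain and is known from lymphocytes, platelets and macrophages. Its probe, at chr7:135517256-135517315 on the minus strand, read 0.91, 0.24 and 0.26 in controls and -0.16, 0.06 and 0.01 in p40-/-CD25-/- cells. All controls were above all p40-/-CD25-/- arrays, and control array 1 stood apart. Rgs10 was 1.42-fold lower in p40-/-CD25-/- cells, a log2 difference of -0.50 ± 0.21 (SE, n = 3) with a 95% interval from -1.0 to 0.00, an unadjusted p of 0.0501 and a limma adjusted p of 0.204. It was lower under all 19 alternatives, between -0.62 and -0.28, and the smallest difference was the one without control array 1.

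Because macrophages also make Rgs10, the 9 macrophage markers on the array were read beside it. Their summed level, in multiples of the 75th percentile, was 29.8, 24.9 and 17.6 in controls and 13.1, 24.4 and 14.7 in p40-/-CD25-/- cells. Brighter probes weigh more in such a sum, and Csf1r and Emr1 gave 59.1% of it on average. The highest sum and the highest Rgs10 were both in control array 1, the sums overlapped between genotypes where Rgs10 did not, and 7 of the 9 markers were well above background on every array. By the brightest probe of each gene, all 9 means were lower in p40-/-CD25-/- cells, but other probes of Csf1r (2 of 3) and Emr1 (1 of 2) were higher. Among the lower, Mrc1, the mannose receptor, was 2.11-fold lower with no overlap (limma adjusted p = 0.106), and Lyz2, a lysozyme, 2.12-fold lower (limma adjusted p = 0.164). The part of these cells in the Rgs10 values was not tested.

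Over the 6 arrays, the probes most like Rgs10 among 20657 that were well above background on all of them were those of a transcript listed only by an Ensembl identifier (Pearson r = 0.987), of Crebzf (r = 0.987) and of Rrm2 (r = 0.985), a subunit of the enzyme that makes deoxynucleotides. Their log2 differences were -0.49, -0.26 and -1.07. This is a description over 6 points that share the 2 genotypes, and 35 probes reached an r of 0.95.

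Rgs13 is known from germinal centre B cells and from mast cells. Its probe, at chr1:145985824-145985883 on the minus strand, read -3.30, -4.51 and -3.71 in controls, with arrays 1 and 3 well above background, and -5.44, -4.57 and -5.02 in p40-/-CD25-/- cells, with none. The lowest control and the highest p40-/-CD25-/- value were close and neither was well above background, so that the genotypes did not overlap is an order of values near background. The means were -3.84 ± 0.62 and -5.01 ± 0.44 (SD, n = 3). It was not tested because no genotype was well above background on all 3 of its arrays, and no fold is given because the bound is under 1. With no filter on dim probes it passed the 2-fold thresholds, as did 34.1% of all probes under that setting, and its limma adjusted p was 0.0679.

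Since S1pr2 and Rgs13 are known from germinal centre B cells, 4 germinal centre markers on the array were read beside them. Their summed level was 8.76, 6.34 and 6.87 in controls and 3.95, 4.65 and 4.54 in p40-/-CD25-/- cells. Mki67 and Bcl6 gave 96.7% of this sum on average, so it does not speak for the list. By means, 2 of the 4 were lower in p40-/-CD25-/- cells, Bcl6, a transcription factor of germinal centre B cells, and the proliferation gene Mki67. Fas and Mybl1 were higher by means. Fas read -2.62, -3.40 and -3.84 in controls and -2.42, -2.39 and -2.42 in p40-/-CD25-/- cells, with no overlap (limma adjusted p = 0.149), and Mybl1 was not well above background on any array. The 8 mast cell markers summed to 4.79, 2.67 and 1.13 in controls and 1.91, 1.41 and 1.66 in p40-/-CD25-/- cells, which overlapped, with Ms4a2 not well above background on any array. Hdc and Tpsb2 gave 61.1% of this sum on average. By means 5 of the 8 were lower in p40-/-CD25-/- cells, while Kit (0.52 on the log2 scale), Hdc (0.05) and Ms4a2 were higher. Among the lower was the protease gene Mcpt4, with a log2 difference of -2.01 and overlapping genotypes (limma adjusted p = 0.203). Mcpt4 passed the filter only through the controls, as it was well above background on 1 of 3 p40-/-CD25-/- arrays. The part of these lists in the values of S1pr2 and Rgs13 was not tested.

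The other genes of the pathway came to 129 probes, of which 88 were tested. Of these, 5 were higher in p40-/-CD25-/- cells past the 2-fold thresholds, and 1, Gpsm2, was lower. Among all tested probes 2.38% were higher and 1.26% lower. Gpsm2 passed the filter only through the controls, since no p40-/-CD25-/- array was well above background. Its place in this count therefore does not speak for a 2-fold fall. No probe among the 88 reached a limma adjusted p under 0.05. An unadjusted p under 0.05 was reached by 17, or 19.3%, against 24.6% of all tested probes. The genotypes did not overlap for 31 of the 88 probes, 10 of them higher and 21 lower, which is 35.2% as among all tested probes. The summed level of 9 T cell markers was 4.98 to 5.67 in controls and 5.90 to 7.86 in p40-/-CD25-/- cells, with 8 of the 9 higher by means, of which Cd8a, Cd8b1 and Cd247 were well above background on at most 1 array each, and 5 of the 9 genes were well above background on every array. Probes that were not well above background on any array read higher on the dimmer p40-/-CD25-/- arrays under this scaling, by a median of 1.19 on the log2 scale. The sum of 5 plasma cell markers was 68.6 to 75.6 and 46.6 to 59.5, with none higher, and Xbp1 and Irf4 gave 91.7% of it. The sums of the NK cell (0.57 to 0.70 and 0.69 to 1.03), granulocyte (109 to 117 and 115 to 223) and B2 cell markers (1.59 to 3.05 and 2.00 to 3.51) overlapped. By means, 5 of 5 NK cell and 2 of 2 B2 cell markers were higher in p40-/-CD25-/- cells, but Ncr1, Klrb1c and Klrd1 of the NK cell list were not well above background on any array. Csf3r alone gave 99.3% of the granulocyte sum, which thus does not speak for its list. The part of these cells in the pathway values was not tested.

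Of the other RGS genes, 11 probes of 7 genes were tested, and 2 passed the 2-fold thresholds. Rgs12, a large multidomain member that acts on Gi, read -2.02, -2.44 and -2.76 in controls and -0.59, -0.83 and -0.96 in p40-/-CD25-/- cells. There was a clear gap between genotypes, and Rgs12 was 3.06-fold higher in p40-/-CD25-/- cells, a log2 difference of 1.61 ± 0.22 (SE, n = 3; limma adjusted p = 0.0685). It was past the thresholds under 18 of 19 alternatives and higher under all of them, with the lowest log2 difference, 0.66, under normexp and quantile normalization. The control values lay near -2.47, the lowest level well above background on p40-/-CD25-/- array 2. Probes not well above background on any array read higher in p40-/-CD25-/- cells by a median of 1.19, and the part of this shift in Rgs12 was not tested. The other 2 probes of Rgs12 were not well above background on any array.

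Rgs20, which favours the Gi family member Gz, read 3.08, 3.74 and 3.28 in controls and 4.37, 4.98 and 4.15 in p40-/-CD25-/- cells. Its genotypes did not overlap either, and the log2 difference was 1.13 ± 0.27 (SE, n = 3; limma adjusted p = 0.103), a 2.19-fold change that was past the thresholds under 16 of 19 alternatives. A second Rgs20 probe, which overlaps the first in position, was not well above background on any array. The other 9 RGS probes lay between -0.45 and 0.44, with 7 of them lower. The genotypes did not overlap for 7 of the 11 tested RGS probes of this list, or 63.6%, against 35.2% of all tested probes. Of these, 2 were higher and 5 lower, the latter being probes of Rgs3, Rgs18 and Rgs19. Gnaz, which encodes Gz itself, was 1.54-fold higher, with a log2 difference of 0.62 (limma adjusted p = 0.15), and its second probe was not well above background on any array.

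Of 11 tested probes of other lipid receptors, 2 passed, both higher in p40-/-CD25-/- cells. They were for Gpr34 and Gpr174, receptors of lysophosphatidylserine. Gpr34 read -3.01, -3.91 and -3.05 in controls and -0.97, -2.78 and -1.96 in p40-/-CD25-/- cells, with array 2 of the latter not well above background. The log2 difference was 1.42 ± 0.46 (SE, n = 3; limma adjusted p = 0.142), past the thresholds under 11 of 18 alternatives. Gpr174 was read by 2 probes that differed: the dimmer gave 1.55 (limma adjusted p = 0.111; past the thresholds under 16 of 18 alternatives) and the brighter, which represents the gene, gave 0.27 with overlapping genotypes. Under normexp and quantile normalization Gpr34 was 0.36 and the dimmer Gpr174 probe 0.54. The part in these dim values of the upward shift of background probes, a median of 1.19, was not tested.

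Among the 26 tested probes of other G protein subunits and their helpers, 1 was higher and 1 lower past the 2-fold thresholds. The lower 1 passed the filter only through the controls. The brighter of 2 probes of the gamma subunit Gng7 read -1.55, -0.98 and -1.49 in controls and -0.39, 0.55 and -0.59 in p40-/-CD25-/- cells, a 2.30-fold increase past the thresholds (limma adjusted p = 0.119) and under 16 of 19 alternatives, while the dimmer differed by -0.22. Gpsm2, a regulator that binds Gi in dividing cells, read -2.68, -4.08 and -2.96 in controls and -5.16, -4.23 and -4.46 in p40-/-CD25-/- cells, where it was not well above background on any array. Its limma adjusted p was 0.126, and no fold is given because its bound is under 1. The difference was past the thresholds under 15 of 18 alternatives and turned to 0.35 under normexp with the same scaling. As Gpsm2 was tested only through the controls, that count does not speak for a 2-fold fall. Both tested probes of Gng12 were lower without passing the thresholds, by -0.56 and -0.75 on the log2 scale.

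In the S1P synthesis, export and breakdown list, none of 11 tested probes passed the thresholds. Mfsd2b, an S1P exporter of blood cells, read 7.16, 7.32 and 7.40 in controls and 7.78, 8.32 and 7.78 in p40-/-CD25-/- cells. It was higher on every p40-/-CD25-/- array, by 1.59-fold (limma adjusted p = 0.126), and a second probe was not well above background on any array. Ppap2c, a lipid phosphate phosphatase, read 2.79, 2.75 and 2.71 in controls and 1.86, 1.98 and 2.32 in p40-/-CD25-/- cells, 1.62-fold lower with no overlap (limma adjusted p = 0.104). Sphk1, the inducible kinase that makes S1P, and Ch25h and Cyp7b1, which make the ligand of Gpr183, were not well above background on any array.

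None of the 22 tested probes of receptor desensitisation and effectors passed the thresholds, and the genotypes of 6, or 27.3%, did not overlap, against 35.2% of all tested probes. Dock2 and Rac1, which drive actin at the front of a migrating lymphocyte, and Arhgef1, a guanine nucleotide exchange factor downstream of S1pr2, each had 2 probes that differed from each other. For Arhgef1 the dimmer probe was higher by 0.58 on the log2 scale and the brighter by 0.19, with overlap. For Dock2 they gave 0.66 and -0.26, and for Rac1 -0.47 and -0.01.

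The 5 genes that control S1pr1 or homing with it had probes well above background on each of the 6 arrays. Their 6 probes lay between -0.19 and 0.05 on the log2 scale and none passed either threshold. Klf2, the transcription factor that drives S1pr1, differed by -0.19 (limma adjusted p = 0.41), and Cd69, which pulls S1pr1 from the surface, by -0.02 (limma adjusted p = 0.94).

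**Figure D3:**
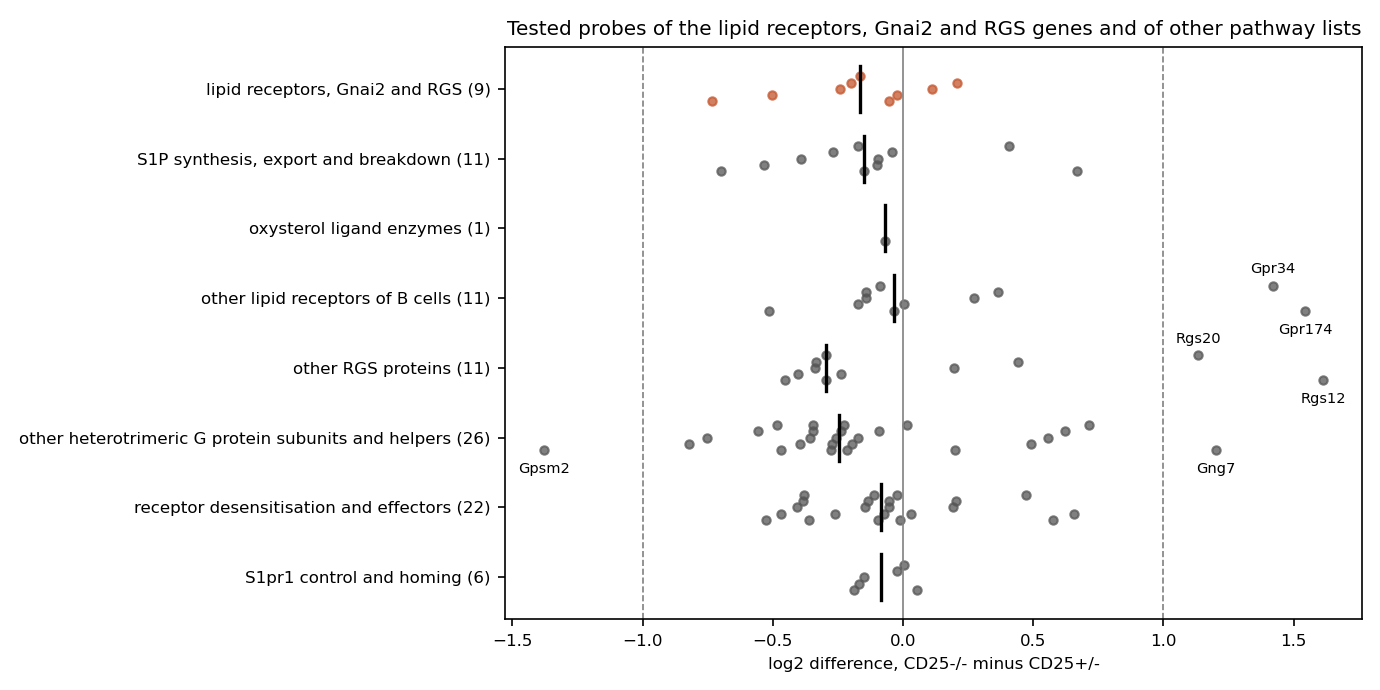
Log2 difference, p40-/-CD25-/- minus p40-/-CD25+/-, of each tested probe, by list, with the number of tested probes in brackets and the median as a black bar; vertical positions within a list only separate the points. Dashed lines mark a 2-fold difference. The named probes passed the 2-fold thresholds: Rgs12, Rgs20, Gpr34, Gpr174 and Gng7 to the right, Gpsm2 to the left, and none of the 9 probes in orange. Gpsm2 was not well above background on any p40-/-CD25-/- array, so its position gives no fold.

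Of the 170 values that the alternatives gave for the 9 tested probes of the receptors, Gnai2 and the RGS genes, 149 kept their direction and their side of the 2-fold thresholds, 19 turned direction and 2, both of S1pr2, passed the thresholds.

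**Figure D4:**
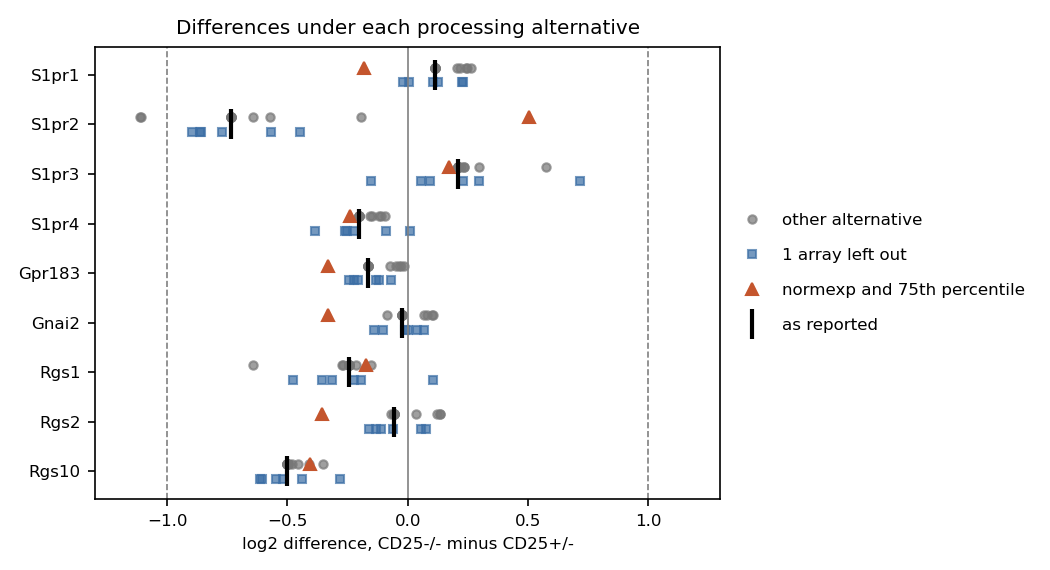
Log2 difference, p40-/-CD25-/- minus p40-/-CD25+/-, of the 9 tested probes as reported (black bar), with 1 array left out (squares), with normexp and the 75th percentile (triangle) and under the other alternatives (circles). Dashed lines mark a 2-fold difference. S1pr2 is the probe that spans the widest range, from -1.11 to 0.51, and Rgs10 and Gpr183 keep 1 direction throughout.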

How the data were processed

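RNA of sorted B1a cells was labelled with Cy3 and hybridized to Agilent mouse arrays by the authors. Spots were read with Agilent Feature Extraction 10.7.1.1, per the labels. The deposited intensity of a spot is background-subtracted and detrended within the array, and is not scaled between arrays. The authors also deposited log2 values, whose 6 columns have the same sorted values to within 0.000545 (quantile normalized). Quality marks and probe positions (mm9) came from the same files; exon or UTR annotation is not given in the sources used here.

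Log2 of the processed signal minus the array's 75th percentile over 59305 non-control spots was computed. Outlier spots (163 to 251 per array) were dropped and spots of a probe averaged. No spot was saturated. A probe was tested if well above background on all 3 arrays of 1 genotype and measured on at least 2 of each. Genotypes were compared with limma 3.58.1 in R 4.3.3 (lmFit and eBayes, no covariate), with Benjamini-Hochberg adjustment over all tested probes. The steps were tested on simulated data. An exact permutation test of 3 against 3 cannot go below 0.1. The labels do not say that the arrays came from separate animals, so p-values measure the spread between these samples, and 3 arrays a genotype limit the precision. All arrays shared 1 slide and 1 scan.

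The 10 genes and the lists were chosen with earlier results of these data known. Named were the 10 genes; of each pathway list, at most the 2 largest changes a direction among genes past the 2-fold thresholds or with no overlap and an unadjusted p of at most 0.05; and the 3 genes most correlated with the member that differed most and was well above background on all 6 arrays. Sphk1, Ch25h, Cyp7b1, Klf2 and Cd69 were named after their values were seen. The markers of other cells were B cell, germinal centre, B2, T, NK, mast and plasma cell, macrophage and granulocyte genes, and some of them are not reported here. The alternatives were other scalings, background corrections, filters, tests and weights, a replicate block, and each array left out.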

Additional observations from a re-analysis of the deposited data

How the results depend on the processing

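The count of tested probes of the 10 genes past the 2-fold thresholds was 0 and stayed 0 under 15 of 19 alternatives. It was 1 under quantile normalization and with the deposited log2 values (S1pr2 at -1.11 in each) and 1 with no filter on dim probes (Rgs13), and ranged from 0 to 1 with 1 array left out (Rgs13 at -1.50 without control array 2). The count past the adjusted p was 0, and was 1 (S1pr2, at 0.51 and in the opposite direction) under normexp with the 75th percentile.

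Over all probes, 900 passed the 2-fold thresholds. This count was 233 with normexp and the 75th percentile, 192 with normexp and quantile normalization, 18975 with no filter and 592 among probes well above background on all 6 arrays, and the methods' t-test at the same thresholds gave 612. With 1 array left out it ranged from 851 to 1581, the latter without p40-/-CD25-/- array 3. The count past the adjusted p was 20. It was 6 with quantile normalization and also with the deposited values, 9334 with normexp and the 75th percentile, 55 with normexp and quantile normalization, 2 with no filter, 96 among probes well above background on all 6 arrays, 7 with each gene by its brightest probe, 1 with the methods' t-test after Benjamini-Hochberg, 980 with trend and robust estimation and 4001 with array weights. With 1 array left out it ranged from 2 to 136; without control arrays 1, 2 and 3 it was 3, 2 and 2, without p40-/-CD25-/- array 1 it was 12 and without array 3 it was 136. Of the pathway, 6 probes passed the 2-fold thresholds, counting Gpsm2, with 1 under either normexp setting and 32 with no filter. The causes were not tested.

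The log2 difference turned direction as follows. S1pr1 was -0.18 under normexp with the 75th percentile. Gnai2 and Rgs2 were 0.10 and 0.14 with quantile normalization, 0.068 and 0.036 with the median of bright probes (a scaling that raised every difference by 0.091 to 0.11), 0.10 and 0.14 with normexp and quantile normalization, and 0.080 and 0.12 with the deposited values. With 1 array left out, S1pr1 ranged from -0.018 to 0.23, S1pr3 from -0.15 to 0.72, S1pr4 from -0.39 to 0.0097, Gnai2 from -0.14 to 0.068, Rgs1 from -0.48 to 0.11 and Rgs2 from -0.16 to 0.076.

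Arrays with the same number in both genotypes deviated together with correlations of 0.175, 0.0573 and 0.120. These were all above those of arrays with different numbers, which ran from -0.178 to 0.0408. The methods state an unpaired test, and the main test did not pair the arrays either. With the replicate block, 1 probe passed the adjusted p in place of 20 and no probe of the 10 genes passed either threshold. S1pr2 and Rgs13 are limited by signal over background.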
